A study of Mus musculus with 3 samples.

Results

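Collagen processing and the secretory pathway were followed through 45 mouse genes, chosen by name as the machinery that folds, modifies, exports and cross-links collagen. All 45 were found among the 27998 genes listed for 2 of the libraries and the 32285 listed for the other. They were described in odontoblast-like, osteoblast-like, ameloblast-like and fibroblast-like cells, each class named from marker genes within its library. The cells came from mouse mandibular molars, whose dental pulp and periodontium were dissociated with enzymes and sorted by fluorescence, with about 10000 cells loaded per library for droplet sequencing of 3' ends with unique molecular identifiers (UMIs). The library at postnatal day 25 (P25) came from Col1a1-GFP; Cxcl12-creER; R26R(tdTomato/+) mice and held cells positive for GFP, for tdTomato or for both. The first library at day 6 (creER P6) came from Cxcl12-creER; R26R(tdTomato/+) mice and held tdTomato-positive cells. The second (GFP P6) came from Cxcl12-GFP/+ mice and held GFP-positive cells. In the 2 creER genotypes an inducible recombinase under Cxcl12 control switches tdTomato on, so that tdTomato marks Cxcl12-expressing cells and their descendants, while GFP at P25 reports the type I collagen gene Col1a1. The labels give neither the time of tamoxifen nor the number of animals, and the sort decides which cells each library can hold.

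Fibrillar collagen is made as procollagen chains that enter the endoplasmic reticulum (ER) through the Sec61 channel, where prolyl and lysyl residues are hydroxylated before the chains fold into a triple helix. The helix is held by a dedicated chaperone, leaves in large coated carriers, loses its propeptides outside the cell and is cross-linked by lysyl oxidases. Odontoblasts lay down dentin and osteoblasts lay down bone, both rich in type I collagen, and ligament fibroblasts anchor the tooth with collagen fibres, whereas ameloblasts secrete enamel proteins, of which amelogenin is the main one.

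Each age and sort was a single library. No value has a replicate check, no p-value is given, and each range in parentheses is a 95% interval for counting error alone. Levels are CPM, the UMIs of a gene summed over the cells of a class and scaled to the same total in every class, with exact Poisson intervals. A ratio of levels is given from the counts with an exact conditional binomial interval, and the log2 ratio was taken after adding 1 CPM to each level. A member was counted as higher or lower where that log2 ratio reached 1, a 2-fold difference, among genes with a mean of at least 20 CPM over the 2 classes and at least 20 UMIs in them together. After filtering, 5401 cells with a median of 14825 UMIs were kept at P25, 1121 with 1469 UMIs in creER P6 and 7065 with 8139 UMIs in GFP P6. The P25 library shared 5 cell barcodes with creER P6 and 1 with GFP P6.

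The P25 classes used here were odontoblast-like (304 cells, cluster 4), osteoblast-like (899 cells, 4 clusters), connective tissue fibroblast-like (118 cells, cluster 15), ligament-like (1867 cells, 5 clusters) and pulp-like cells (636 cells, cluster 0), and 731 cells stayed unnamed. The odontoblast-like cluster was led by Coch, Dspp, Ifitm5, Tubb3, Slpi, Smpd3 and Wnt10a, and 6 of its 7 markers stood above the other clusters. The mean log2 excess of those markers over the lower quartile of the other clusters was 4.33, against 4.66 for the osteoblast or cementoblast markers, and the name rests on 3 odontoblast markers among its 10 leading genes. Dspp, which encodes the main non-collagen proteins of dentin, was at 672 CPM there, against 10.3 CPM in osteoblast-like, 7.5 CPM in pulp-like and 5.04 CPM in macrophage-like cells. Its 3764 UMIs lay in 40 of the 304 cells (13.2%, exact binomial interval 9.57 to 17.5%; median depth 16582 UMIs), while 16 of 253 macrophage-like cells had a Dspp UMI (6.32%, 3.66 to 10.1%; 14267 UMIs). The label of the class therefore rests on the other leading genes in most of its cells. Bone markers were also present: Ibsp was at 4491 CPM in odontoblast-like and 13884 CPM in osteoblast-like cells, and Bglap at 11266 CPM and 61799 CPM in those classes. Dspp was at 255 CPM in connective tissue fibroblast-like cells, from 2.54% of them.

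In creER P6 the classes used were ameloblast-like (88 cells, cluster 3), osteoblast-like (160 cells, clusters 0, 13 and 19) and connective tissue fibroblast-like cells (129 cells, clusters 2 and 15). The ameloblast-like cells are epithelial by their markers although the library's label gives mesenchymal cells. Amelx, the amelogenin gene, took 48.0% of their UMIs, 480381 CPM. It also had a UMI in 79.4% of osteoblast-like, 76.0% of connective tissue fibroblast-like and 72.2% (54.8 to 85.8%) of neutrophil-like cells of that library, at 1423, 771 and 321 CPM, so Amelx UMIs were present in each class checked. Median depth was 4867 UMIs in ameloblast-like cells but 1298 in osteoblast-like and 1232 in connective tissue fibroblast-like cells. In GFP P6 the classes used were ligament-like (826 cells, cluster 1) and pulp-like cells (1222 cells, clusters 3 and 5). Unnamed cells numbered 2728 of 7065 in GFP P6 and 304 of 1121 in creER P6. Those of GFP P6 included clusters 8 and 11, whose best marker list was ligament or dental follicle but without a clear lead. Collagen genes took 1.95% of UMIs in cluster 8 and 3.43% in cluster 11, against 2.12% in the ligament-like cluster. The ligament-like class was thus 1 cluster in GFP P6 and 5 at P25. Of the 45 genes, 14 have exons that overlap exons of another listed gene in the GENCODE vM21 annotation, and no source used here says whether counting used strand. The longest overlaps with an expressed neighbour were 369 bases between Loxl3 and Htra2, 315 bases between Plod3 and Znhit1 and 193 bases between Fkbp10 and Nt5c3b, all on opposite strands, and reads in them cannot be told apart without strand.

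The 45 genes fall into 5 roles. There are 13 general chaperones and disulphide enzymes of the ER, 4 transcription factors of the secretory and stress programmes, 13 procollagen chaperones and modifying enzymes, 9 genes of translocation, ER exit and return, and 6 genes of extracellular maturation and cross-linking. A known stress element stands in some promoters of the first group, and its letters are shown as a description. RefSeq promoters on GRCm38.p6, from 250 bases before to 50 after the start, were matched for 31 of the 45 members. The ER stress response element, CCAAT and CCACG with 9 bases of any kind between them, searched on both strands, was in 6 of those 31 members (19.4%), all of them chaperones, against 37 of all 27025 genes with a promoter (0.137%). In capitals are the element's 19 bases, read 5′ to 3′ on the gene's own strand, so that 2 of the 6 hold it in reverse.
Hspa5: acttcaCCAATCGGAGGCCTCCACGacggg
Calr: acaacgCGTGGTCGACCCTCATTGGcccat
Canx: tattgaCCAATCACCACGCTCCACGaagaa
Pdia6: cagagaCCAATGAAAGGCGGCCACGgcgtg
Dnajc3: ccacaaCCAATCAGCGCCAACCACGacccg
Creld2: gcttctCGTGGCGAGCCTCAATTGGtccac
These windows lie at chr2:34772019-34772048 (Hspa5, plus strand), chr8:84847070-84847099 (Calr, minus), chr11:50325795-50325824 (Canx, minus), chr12:17266485-17266514 (Pdia6, plus), chr14:118937821-118937850 (Dnajc3, plus) and chr15:88819514-88819543 (Creld2, plus). The element began 162 bases before the RefSeq start in Calr and 65 bases before it in Hspa5, the farthest and the nearest of the 6.

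A second element, TGACGTGG, named the unfolded protein response element, was in 3 of the 31 members (9.68%), against 193 of all genes (0.714%). All 3 were genes of ER exit and return: Sec24d and Sec23a encode coat proteins of the carriers that leave the ER, and Kdelr3 encodes a receptor that returns ER proteins.
Sec24d: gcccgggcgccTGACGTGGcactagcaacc
Sec23a: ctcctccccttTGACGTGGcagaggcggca
Kdelr3: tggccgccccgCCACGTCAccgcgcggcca
They lie at chr3:123267459-123267488 (Sec24d, plus), chr12:59011993-59012022 (Sec23a, minus) and chr15:79516367-79516396 (Kdelr3, plus), with the 8 bases of the element in capitals. The related ERSE-II element, ATTGG and CCACG with 1 base of any kind between them, was in 0 of the 31 members and 12 of all genes. A match describes letters in a window and is neither a site nor a cause. The members were chosen by name for their roles, so their shares beside those of all genes test no enrichment.

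At P25 the 45 genes together took 1.46% of the UMIs of odontoblast-like cells, 1.42% of ligament-like, 1.28% of osteoblast-like, 0.975% of connective tissue fibroblast-like and 0.862% of pulp-like cells. Collagen genes took 8.97% in odontoblast-like, 10.7% in ligament-like, 8.86% in osteoblast-like, 3.63% in connective tissue fibroblast-like and 0.675% in pulp-like cells. The roles differed in how far they set the classes apart. General chaperones and disulphide enzymes took 0.305% of UMIs in odontoblast-like, 0.325% in ligament-like, 0.369% in pulp-like and 0.288% in macrophage-like cells. Over all named classes their share ran between 0.161% in erythroid-like and 0.412% in marrow stromal-like cells, both low in collagen, with mural-like cells at 0.216% and Schwann-like cells at 0.230%. Pooling hides a wider range, since the 2 neutrophil-like clusters stood at 0.369% (cluster 14) and 0.0482% (cluster 19). Procollagen chaperones and modifying enzymes took 0.589% in odontoblast-like, 0.568% in ligament-like, 0.266% in pulp-like and 0.0774% in macrophage-like cells. Extracellular maturation genes took 0.183% in odontoblast-like, 0.20% in ligament-like, 0.0589% in pulp-like and 0.00416% in macrophage-like cells.

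**Figure D1:**
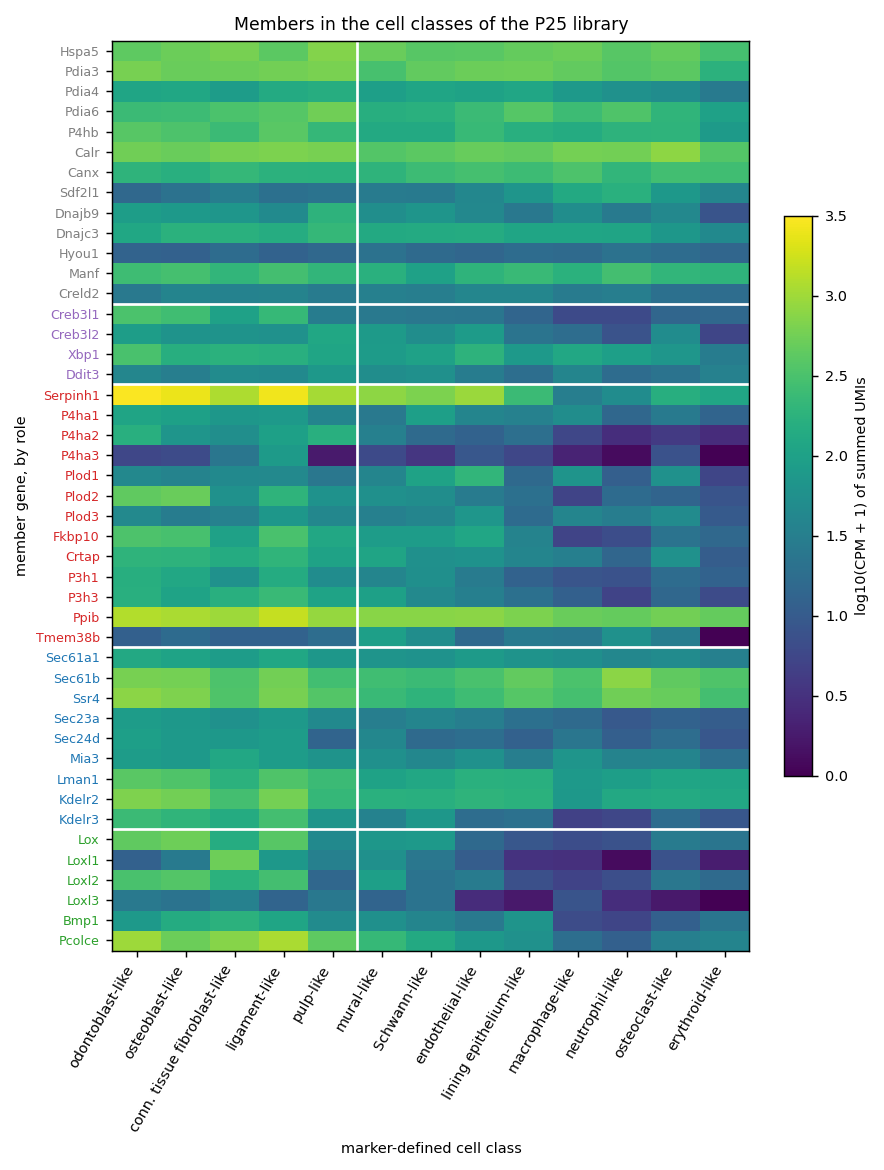
Heat map of log10(CPM + 1) of the 45 genes (rows, grouped by role) in the marker-defined cell classes of the P25 library (columns). Rows of general chaperones change less in shade across most columns, except Sdf2l1, Dnajb9 and Pdia6, whereas Lox, Loxl2, Pcolce and Serpinh1 are bright (high) in odontoblast-like, osteoblast-like and ligament-like cells and dark (low) in macrophage-like and neutrophil-like cells.

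Classes were ranked where they had at least 30 cells, which left 13 and excluded 28 marrow stromal-like cells. Of the 45 genes, 28 had their highest P25 level in a matrix-forming class: 12 in odontoblast-like, 8 in ligament-like, 4 in osteoblast-like and 4 in connective tissue fibroblast-like cells. No like count was made over all genes, so these numbers only describe the members. Some peaks were near ties. P4ha2 was at 158.8 CPM in pulp-like and 158.7 CPM in odontoblast-like cells, and Creld2 at 39.63 CPM in lining epithelium-like and 39.58 CPM in endothelial-like cells. Hyou1 was at 20.1 CPM in mural-like and 19.9 CPM in neutrophil-like cells. Pulp-like cells held the highest level of 9, among them Hspa5 at 698 CPM, the main ATP-driven chaperone of the ER, with Pdia3, Pdia4, Pdia6, Dnajb9, Dnajc3, Creb3l2, Ddit3 and P4ha2. The other 8 peaked elsewhere. Tmem38b, an ER potassium channel needed for collagen assembly, reached 92.9 CPM in mural-like cells, and Hyou1 reached 20.1 CPM there. Sec61b at 788 CPM and Sdf2l1 at 164 CPM peaked in neutrophil-like cells, and Plod1, a lysyl hydroxylase, peaked at 203 CPM in endothelial-like cells. Creld2 was highest in lining epithelium-like cells at 39.6 CPM, Canx in macrophage-like cells at 337 CPM and Calr in osteoclast-like cells at 805 CPM. Macrophage-like cells give the level at which collagen-specific genes stand in cells not known for laying down a collagen matrix: 30 CPM for Serpinh1, 17.1 CPM for Pcolce, 5.79 CPM for Lox, 5.04 CPM for Creb3l1 and 4.03 CPM for Loxl2.

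Odontoblast-like cells were set against pulp-like cells to describe which of the genes differ between these marker-named classes. The odontoblast-like cluster scored 4.33 on odontoblast markers and 4.66 on osteoblast or cementoblast markers. The values therefore cannot show which genes mark dentin-forming cells as such. The lysyl oxidase genes Lox and Loxl2, the transcription factor Creb3l1 and the export coat gene Sec24d were far higher in odontoblast-like cells, while Loxl1 and the general chaperones Pdia6 and Dnajb9 were lower. Of 41 members tested, 15 were higher and 3 lower, against 7.53% of all 5978 genes higher, 15.3% lower and 22.8% in either direction. The members' median log2 ratio was 0.73, beside -0.22 over all genes, and median-of-ratios scaling gave 20 higher and 1 lower. Sdf2l1, Hyou1, P4ha3 and Tmem38b were too low to be tested.

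Among the extracellular genes, Loxl2 was at 313 CPM in odontoblast-like and 13.7 CPM in pulp-like cells, 22.8-fold higher (18.3 to 28.6; log2 4.41). Lox was at 441 and 45.3 CPM in the same order of classes, 9.72-fold higher (8.6 to 11), and both enzymes oxidise lysines so that collagen can cross-link. Pcolce, which speeds removal of the C-propeptide, was 2.27-fold higher (964 CPM in odontoblast-like and 424 CPM in pulp-like cells), and Bmp1, the protease it helps, was not past 2-fold at 76.2 and 48 CPM. Loxl1, known for its part in elastic fibres, went the other way and was 2.92-fold lower, at 11.2 CPM in odontoblast-like and 32.9 CPM in pulp-like cells. Loxl3 was alike in both at 25.2 and 24.3 CPM. The lysyl oxidase family was thus split between the 2 classes rather than shifted as a whole.

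Of the transcription factors, Creb3l1, a membrane-bound factor that drives procollagen genes in osteoblasts, was at 321 CPM in odontoblast-like and 28.3 CPM in pulp-like cells, 11.4-fold higher (9.73 to 13.3). Its relative Creb3l2 was at 87.1 CPM in odontoblast-like and 122 CPM in pulp-like cells. Xbp1, a driver of secretory capacity, was 2.73-fold higher (2.5 to 2.98) at 310 and 114 CPM, and Ddit3, a factor of prolonged ER stress, was at 39.6 and 73.6 CPM, short of 2-fold.

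Of 11 procollagen genes tested, 5 were higher in odontoblast-like cells and 0 lower. Plod2, which hydroxylates lysines of the telopeptides, was at 445 CPM in odontoblast-like and 60 CPM in pulp-like cells, 7.42-fold higher (6.65 to 8.29). P3h1, a prolyl 3-hydroxylase, was 3.16-fold, P4ha1, a catalytic subunit of prolyl 4-hydroxylase, 3.03-fold, Serpinh1, the dedicated procollagen chaperone, 2.82-fold and Fkbp10, a prolyl isomerase, 2.72-fold higher. P4ha2, the other main prolyl 4-hydroxylase subunit, was at 159 CPM in each class (ratio 0.999, 0.912 to 1.1). Crtap, Plod1, P3h3, Ppib and Plod3 had log2 ratios of 0.88, 0.82, 0.61, 0.50 and 0.10.

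Of 9 genes of translocation, exit and return, 5 were higher and 0 lower. Sec24d, whose promoter letters are shown above, was at 92.1 CPM in odontoblast-like and 12.5 CPM in pulp-like cells, 7.4-fold higher (5.82 to 9.51). Kdelr3 was 3.59-fold and Kdelr2 3.11-fold higher, Sec61b, a channel subunit, 2.23-fold and Ssr4, a translocon-associated subunit, 2.12-fold. Sec23a, which carries the same promoter element as Sec24d, was at 84.1 and 45.3 CPM, a log2 ratio of 0.88.

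Of 11 general chaperones tested, 0 were higher and 2 lower: Pdia6, a disulphide isomerase, at 245 CPM in odontoblast-like and 558 CPM in pulp-like cells (2.27-fold lower, 2.14 to 2.42), and Dnajb9, a co-chaperone of ER degradation, at 87 and 180 CPM (2.07-fold lower). Hspa5 was at 427 CPM in odontoblast-like and 698 CPM in pulp-like cells, a log2 ratio of -0.71 that became -0.48 under median-of-ratios scaling. Under that scaling Pdia6 was at -0.96 and Dnajb9 at -0.82, so neither stayed past 2-fold, and Loxl1 alone of the lower members did. The median of the 11 chaperones was -0.15, beside -0.22 for all genes. P4hb, which is both a disulphide isomerase and the shared subunit of prolyl 4-hydroxylase, had the highest log2 ratio of this role at 0.88 (392 and 212 CPM). Genes of acute stress also differed between the classes: Fos was at 3081 CPM in odontoblast-like and 7428 CPM in pulp-like cells, and Ppp1r15a was at 129 CPM in odontoblast-like and 472 CPM in pulp-like cells. Their part in the chaperone values was not tested.

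Pathway genes outside the 45 gave a like picture. In odontoblast-like over pulp-like cells, 9 of 12 tested collagen cargo genes were higher and 0 lower (median log2 1.94), led by Col1a1 at 51595 CPM in odontoblast-like and 1272 CPM in pulp-like cells. Other collagen-modifying genes had 4 of 8 higher and 0 lower (median 0.92), with Fkbp7 at 374 and 104 CPM. Genes of ER exit and return had 3 of 18 higher and 0 lower (median 0.61), with Sec31a, a coat protein, at 237 and 81.7 CPM. Of 11 other ER folding genes 1 was higher, Fkbp11 at 271 CPM in odontoblast-like and 32.6 CPM in pulp-like cells, and the median was 0.09. Of 11 other genes of the unfolded protein response 1 was higher and 1 lower, with a median of -0.03. Translocon and signal peptidase genes had 4 of 16 higher and 1 lower, N-glycosylation genes 2 of 10 higher and 0 lower. Adamts2, which removes the N-propeptide, was at 186 CPM in odontoblast-like and 8.46 CPM in pulp-like cells.

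Ligament-like cells set against the same pulp-like cells at P25 had 17 of 41 members higher and 2 lower, against 7.82% of all genes higher, 13.8% lower and 21.6% in either direction, with a median of 0.82 beside -0.22 for all genes. The pulp-like cells are shared with the comparison above, so the values are given side by side and the 2 counts are not independent. P4ha3, another catalytic subunit of prolyl 4-hydroxylase, was at 78.8 CPM in ligament-like cells, against 0.798 CPM (5 UMIs) in pulp-like cells, a ratio of 98.7 (42.3 to 304). In odontoblast-like and osteoblast-like cells it was at 4.64 and 5.33 CPM, so ligament-like cells stood apart for this subunit. Loxl2 was at 286 CPM in ligament-like cells (20.8-fold higher), Lox at 392 CPM (8.64-fold), Creb3l1 at 223 CPM (7.91-fold), Sec24d at 84 CPM (6.75-fold) and Kdelr3 at 282 CPM (4.22-fold). Plod2 was at 186 CPM (3.1-fold higher) and Pcolce at 1122 CPM (2.64-fold). Loxl1 was higher as well, at 72.6 CPM in ligament-like cells, against 32.9 CPM in pulp-like cells (2.21-fold, 1.91 to 2.56), the reverse of its place in odontoblast-like cells. Lower were Dnajb9, at 46.5 and 180 CPM (3.87-fold lower), and Creb3l2, at 58.4 and 122 CPM (2.09-fold lower). Under median-of-ratios scaling Creb3l2 was at -0.83, no longer past 2-fold. Sdf2l1, Hyou1, Tmem38b and Loxl3 were too low to be tested.

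By role, 7 of 12 procollagen genes, 4 of 9 genes of translocation, exit and return and 5 of 5 extracellular genes tested were higher in ligament-like cells and none of them lower, while of 11 general chaperones 0 were higher and 1 was lower. Collagen cargo genes were higher for 12 of 12 tested (median 3.26), with Col11a1 at 1682 CPM in ligament-like cells, against 37.5 CPM in pulp-like cells. Fkbp11 was at 309 CPM and Adamts2 at 340 CPM in ligament-like cells. Ppp1r15a was at 101 CPM in ligament-like cells, against 472 CPM in pulp-like cells, the lowest log2 ratio of the other unfolded protein response genes.

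The day 6 library sorted for Cxcl12-GFP held a pair of classes with the same names in other animals, and there the differences were fewer. Its pulp-like clusters 3 and 5 scored 1.23 and 1.24 on pulp or papilla markers, against 2.25 for the pulp-like cluster at P25. The part of this in the counts was not tested. In ligament-like over pulp-like cells of GFP P6, 8 of 43 members were higher and 4 lower, against 7.77% of all genes higher, 8.65% lower and 16.4% in either direction, with a median of 0.19 beside -0.11 for all genes. Hyou1 and Tmem38b were too low to be tested. P4ha3 was again the farthest apart, at 98.5 CPM in ligament-like cells, against 3.65 CPM in pulp-like cells, 27-fold higher (19.2 to 39.3). Plod2 followed at 190 and 22.7 CPM (8.34-fold, 7.22 to 9.68), then Lox at 234 and 46.9 CPM (4.99-fold) and Loxl1 at 162 and 40.5 CPM (3.99-fold). The others past 2-fold were Sec24d (3.69-fold), Loxl2 (3.3-fold), Creb3l1 (2.48-fold) and Pcolce (2.27-fold). All 8 were also higher in ligament-like than pulp-like cells at P25.

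P4ha2 was the member farthest down in that library. It was at 32.4 CPM in ligament-like cells, against 217 CPM in pulp-like cells of GFP P6, 6.69-fold lower, and at 96.8 and 159 CPM in those classes at P25, a log2 ratio of -0.71. The 3 catalytic subunits of prolyl 4-hydroxylase were thus distributed differently over the mesenchyme of these 2 libraries: P4ha3 with ligament-like cells, P4ha2 with pulp-like and odontoblast-like cells, and P4ha1 between 36.6 CPM in pulp-like and 111 CPM in odontoblast-like cells at P25. In creER P6, P4ha3 was at 35.6 CPM in connective tissue fibroblast-like cells (interval from 20.3 CPM). It was at 27.7 CPM in ligament-like cells (interval up to 37.5 CPM), so the intervals overlap and the order is not settled. P4ha2 in that library was at 100 CPM in Col9a1-high mesenchymal cells (from 66.6 CPM) and 82.6 CPM in ameloblast-like cells (up to 101 CPM), again with overlapping intervals. In GFP P6, Loxl3 (2.59-fold), Creb3l2 (2.36-fold) and Dnajb9 (2.12-fold) were the others lower in ligament-like cells, and Dnajb9 was at -0.97 under median-of-ratios scaling and -0.65 with the limit of 10% mitochondrial UMIs, short of 2-fold in each. Serpinh1 was at 2560.1 CPM in ligament-like cells, against 1966 CPM in pulp-like cells, a log2 ratio of 0.38, where at P25 it had been 2.54-fold higher.

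**Figure D2:**
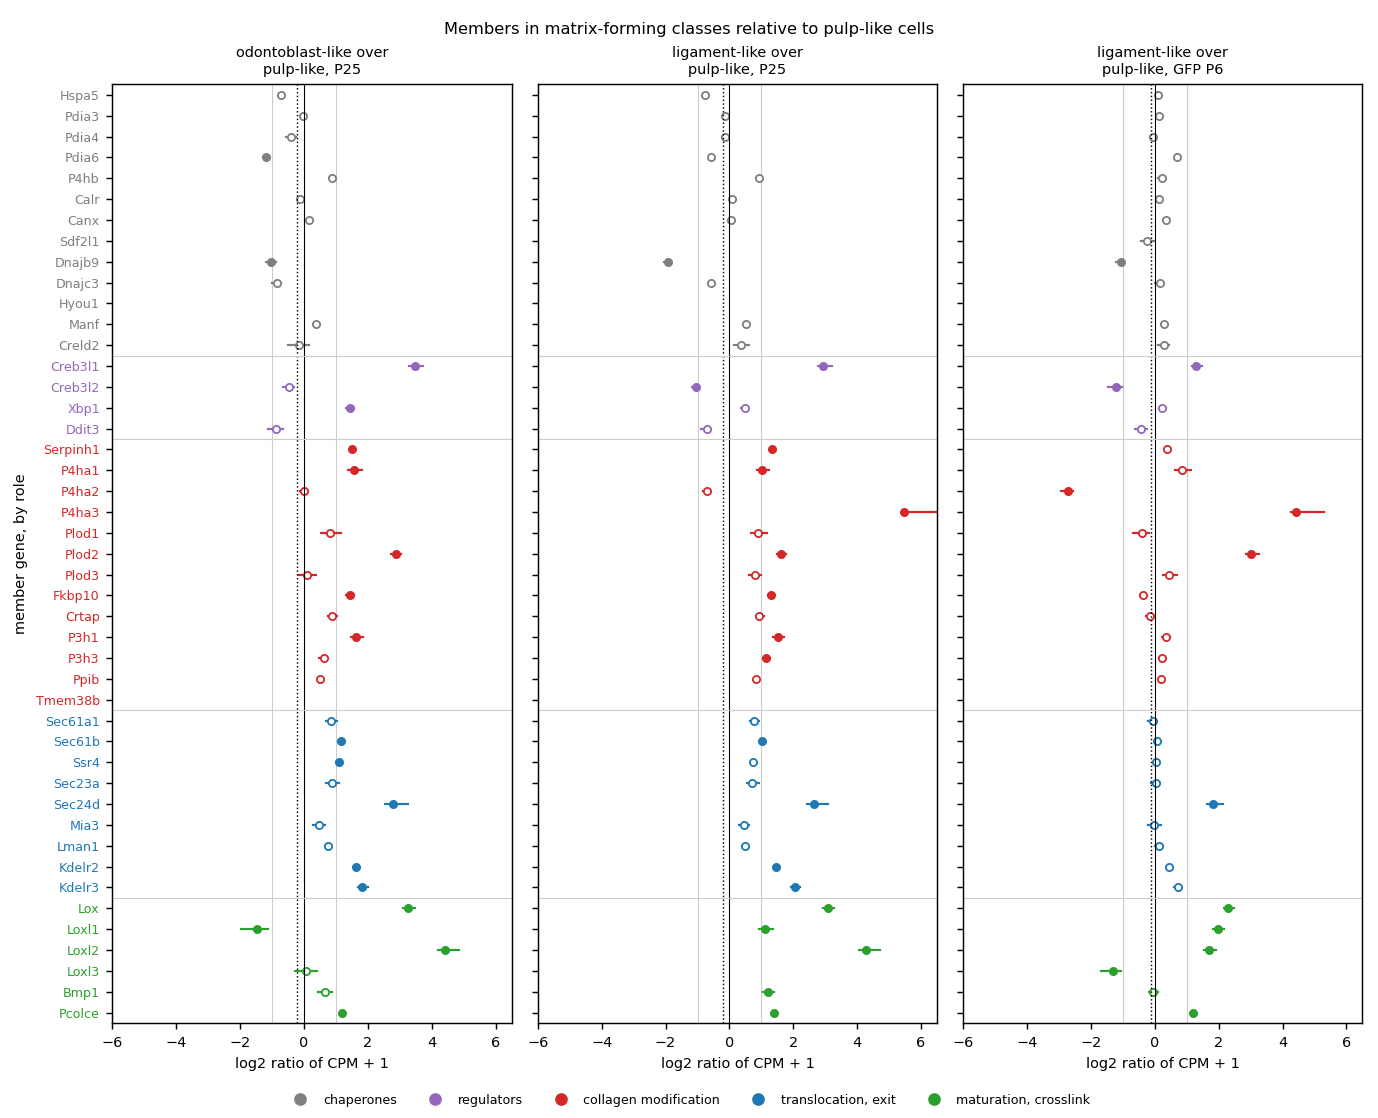
Log2 ratios of CPM + 1 of the 45 genes, by role, for odontoblast-like over pulp-like and ligament-like over pulp-like cells at P25 and ligament-like over pulp-like cells in GFP P6. Points are log2 ratios after adding 1 CPM, bars the 95% counting interval of the plain ratio, filled points those past 2-fold, and the dotted line the median of all genes. Lox, Loxl2, Creb3l1 and Sec24d lie far to the right in all 3 panels, and most general chaperones lie between -1 and 1, with Dnajb9 at or below -1 in each panel.

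Few of the 45 genes differed by 2-fold between odontoblast-like and osteoblast-like cells, and the share was low over all genes too. The odontoblast-like cluster also scored higher on osteoblast or cementoblast markers (4.66) than on odontoblast markers (4.33). Of 40 members tested, 1 was higher and 0 were lower in odontoblast-like cells, against 5.81% of all genes higher, 3.43% lower and 9.24% in either direction, and the median of 0.23 lay beside 0.20 for all genes. The gene was P4ha2, at 159 CPM in odontoblast-like and 66.4 CPM in osteoblast-like cells, 2.39-fold higher (2.19 to 2.61). Next came Xbp1 at 310 and 157 CPM (log2 0.97), Pcolce at 964 and 521 CPM (0.89) and Plod3 at 43.2 and 28.2 CPM (0.60). Bmp1 had the lowest log2 ratio at -0.90, with 76.2 CPM in odontoblast-like and 143 CPM in osteoblast-like cells, and it was past 2-fold lower under both other scalings, which gave 1 higher and 1 lower. Creb3l1, Serpinh1, Plod2, Lox and Loxl2 had log2 ratios between -0.26 and 0.27. Loxl1 was too low to be tested, as were Sdf2l1, Hyou1, P4ha3 and Tmem38b.

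The count was small under every alternative but not fixed. It was 2 or 3 without osteoblast-like cluster 8, 11 or 13 and 3 when the odontoblast-like class was limited to its 40 cells with a Dspp UMI. Within the osteoblast-like class the clusters themselves differed more than the 2 classes did. Lox was at 299.9 CPM in cluster 6 and 863 CPM in cluster 13, Loxl2 at 66.8 and 739 CPM, and Kdelr3 at 97.5 and 352 CPM. Loxl1 ran against them, at 66.6 CPM in cluster 6 and 4.88 CPM in cluster 13.

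Osteoblast-like cells were next set against ligament-like cells at P25, classes named for the bone and the soft side of the periodontium. Bone markers were present in the ligament-like class too, with Ibsp at 1462 CPM. Its cluster 2 scored 2.66 on ligament or dental follicle markers and 2.68 on osteoblast or cementoblast markers, and its cluster 10 scored 3.67 and 3.57. Of 41 members 1 was higher and 5 were lower, against 3.93% of all genes higher, 9.1% lower and 13% in either direction, with a members' median of -0.12 beside -0.17 for all genes. Plod2 was at 497 CPM in osteoblast-like and 186 CPM in ligament-like cells, 2.67-fold higher (2.58 to 2.76). The telopeptide enzyme was therefore at like levels in odontoblast-like and osteoblast-like cells (445 and 497 CPM) and lower in ligament-like cells. The lower members were P4ha3 at 5.33 and 78.8 CPM (14.8-fold lower), Loxl1 at 25.5 and 72.6 CPM (2.85-fold), Plod3 at 28.2 and 70.1 CPM (2.48-fold), P3h3, a prolyl 3-hydroxylase of the same family as P3h1, at 107 and 235 CPM (2.2-fold) and Pcolce at 521 and 1122 CPM (2.15-fold). Under median-of-ratios scaling P3h3 was at -0.96 and Pcolce at -0.93, so neither stayed past 2-fold. Sdf2l1, Hyou1, Tmem38b and Loxl3 were too low to be tested. None of 11 general chaperones, 4 transcription factors and 9 genes of translocation, exit and return reached 2-fold.

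Collagen cargo differed much more than the machinery did. Of 13 cargo genes tested, 1 was higher and 8 lower in osteoblast-like cells, with a median of -2.0. Col3a1 was at 1128 CPM in osteoblast-like and 27943 CPM in ligament-like cells, and Col11a2 was at 972 and 12.1 CPM. Atf3, an early stress gene, was at 491 CPM in osteoblast-like and 127 CPM in ligament-like cells, and its part in these values was not tested.

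Connective tissue fibroblast-like cells, with markers such as Pi16 and Dpt, had less of the procollagen machinery than ligament-like cells at P25 and more of 2 lysyl oxidases. Of 43 members 2 were higher and 10 lower, against 11.3% of all genes higher, 5.83% lower and 17.2% in either direction, and the median was -0.51 beside 0.13 for all genes. Hyou1 and Tmem38b were too low to be tested. Loxl1 was at 541 CPM in connective tissue fibroblast-like and 72.6 CPM in ligament-like cells, 7.46-fold higher (6.88 to 8.08), and Loxl3 was at 33.8 and 12.6 CPM, 2.67-fold higher (1.95 to 3.59). Lox went the opposite way at 144 and 392 CPM, 2.72-fold lower (interval of the ratio 0.319 to 0.42). The lysyl oxidase genes were thus divided again, with Loxl1 and Loxl3 higher in this class and Lox lower, and Loxl2 stood at 170 CPM in connective tissue fibroblast-like and 286 CPM in ligament-like cells.

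Of 12 procollagen genes tested, 6 were lower and 0 higher, with a median of -0.94. P4ha3 was at 22.3 CPM in connective tissue fibroblast-like and 78.8 CPM in ligament-like cells (3.53-fold lower), Plod2 at 58.8 and 186 CPM (3.16-fold), Fkbp10 at 98.6 and 308 CPM (3.13-fold) and Serpinh1 at 1162 and 2674 CPM (2.3-fold). P3h1 was 2.43-fold and Plod3 2.07-fold lower. Creb3l1 (2.22-fold), Kdelr2 (2.08-fold) and Kdelr3 (2.02-fold) were the other members lower. None of 12 general chaperones reached 2-fold, and Hspa5 was at 603 and 411 CPM. Leaving out ligament-like cluster 1, the cluster of that class with the highest Lox (577 CPM, against 134 CPM in cluster 3), left 7 members past 2-fold, 1 higher and 6 lower.

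Outside the 45 genes, Pcolce2, a second enhancer of C-propeptide removal, was at 445 CPM in connective tissue fibroblast-like and 1.51 CPM in ligament-like cells, while Pcolce was at 742 and 1122 CPM. Fkbp11 was at 56.7 and 309 CPM. Of the collagen cargo genes 2 were higher and 6 lower, with Col14a1 at 770.2 and 2.62 CPM and Col12a1 at 68.9 and 1505 CPM. Atf3 was at 976 CPM in connective tissue fibroblast-like and 127 CPM in ligament-like cells and Ppp1r15a at 257 and 101 CPM. Their part in the member values was not tested.

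Across all clusters, named or not, the share of UMIs in collagen genes was set beside the share in each role. These are descriptions over clusters of single libraries, which share a library, its depth and its free RNA, so no p is given. Over the 28 clusters at P25, Spearman's rho with the collagen share was 0.920 for extracellular genes, 0.918 for procollagen genes, 0.869 for transcription factors, 0.840 for translocation, exit and return and 0.327 for general chaperones. Over the 21 clusters of creER P6 the values were 0.890, 0.869, 0.678, 0.751 and 0.447 in the same order of roles. Over the 20 clusters of GFP P6 they were 0.871, 0.747, 0.662, 0.448 and 0.773, so the low place of the general chaperones did not appear in that library. Among single members at P25, Kdelr3 (0.940), Fkbp10 (0.934), Serpinh1 (0.930), Creb3l1 (0.929) and Sec24d (0.927) followed the collagen share most closely. Sdf2l1 (-0.719), Canx (-0.582), Hyou1 (-0.516) and Tmem38b (-0.501) ran against it.

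**Figure D3:**
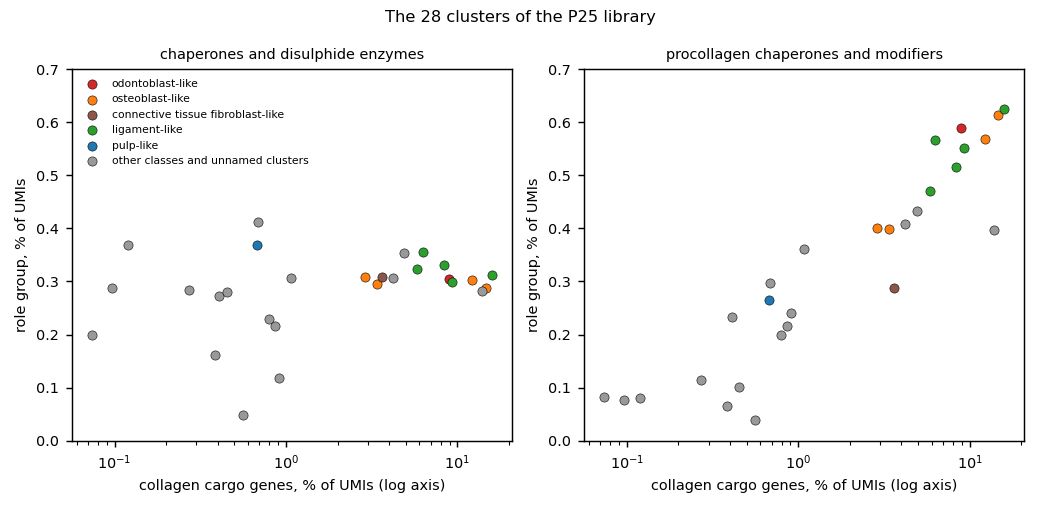
Percent of UMIs in general chaperones and disulphide enzymes (first panel) and in procollagen chaperones and modifying enzymes (other panel), on the y axis, against percent of UMIs in collagen cargo genes (x axis, log scale) for the 28 clusters of the P25 library, coloured by class. Procollagen genes climb with the collagen share over most clusters, and the general chaperones climb less.

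Ameloblasts are known for a matrix built on enamel proteins, and the ameloblast-like cells of creER P6 were set against connective tissue fibroblast-like cells of the same library. The 45 genes took 0.418% of UMIs in ameloblast-like and 1.22% in connective tissue fibroblast-like cells, and collagen genes 0.0691% and 4.53%. Amelx took 48.0% of the UMIs of the first class, and the median of all genes was -1.28. Log2 ratios are therefore also given relative to that median. Of 40 members tested, 1 was higher and 28 were lower, against 6.82% of all genes higher, 60.2% lower and 67% in either direction. Both other scalings gave 6 higher and 15 lower. The members' median was -1.64, and it stayed at -1.64 with Lox at the bound of 3 UMIs. Sdf2l1, Ddit3, P4ha3, Tmem38b and Loxl3 were too low to be tested.

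The extracellular genes were nearly absent. Lox had 0 UMIs in ameloblast-like cells, where 3 UMIs would be 2.55 CPM, and was at 327 CPM in connective tissue fibroblast-like cells, at least 128-fold lower. Pcolce was at 4.26 CPM (5 UMIs) in ameloblast-like and 974 CPM in connective tissue fibroblast-like cells, 229-fold lower (ratio 0.00437, 0.00141 to 0.0103). Loxl1 was at 0.851 CPM (1 UMI) and 438 CPM, a ratio of 0.00194 (4.9e-05 to 0.011), and Loxl2 at 4.26 and 262 CPM. Bmp1 was at 11.1 and 207 CPM, 18.7-fold lower. All 5 extracellular genes tested were lower, with a median of -7.53, far below the median of all genes.

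Of 11 procollagen genes tested, 1 was higher and 9 were lower, with a median of -2.64 beside -1.28 for all genes. Crtap, which forms the prolyl 3-hydroxylation complex with P3h1, was at 0.851 CPM (1 UMI) in ameloblast-like and 205 CPM in connective tissue fibroblast-like cells, a ratio of 0.00416 (0.000104 to 0.0238). P3h3 was at 3.41 and 213 CPM, Plod1 at 1.7 and 100 CPM and Fkbp10 at 5.11 and 162 CPM. Serpinh1 was at 224 and 1400.4 CPM, 6.25-fold lower, a log2 ratio of -2.64 and -1.36 relative to the median of all genes. Against these, Plod2 was at 347 CPM in ameloblast-like and 113 CPM in connective tissue fibroblast-like cells, 3.06-fold higher (2.28 to 4.17), a log2 ratio of 1.60 and 2.88 relative to that median. P4ha2 was at 82.6 and 42.2 CPM (log2 0.95, relative 2.23). Ppib, a prolyl isomerase with many clients, was at 425 and 1120.3 CPM, close to the median of all genes at -0.12 relative to it.

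The general chaperones had 0 of 12 higher and 8 lower, with a median of -1.38, and translocation, exit and return had 0 of 9 higher and 5 lower, with a median of -1.01. Of the 40 members, 14 stood above the median of all genes. Ssr4 was at 717 CPM in ameloblast-like and 416 CPM in connective tissue fibroblast-like cells (log2 0.78, relative 2.06), Dnajb9 at 59.6 and 37.8 CPM (0.64, relative 1.92) and Xbp1 at 160.1 and 127 CPM (0.33, relative 1.61). Sec61a1, Sec61b and Manf had relative values of 0.77, 0.69 and 0.84. Pdia6 was at 48.5 and 427 CPM (log2 -3.11, relative -1.83) and Calr at 144 and 778 CPM (-2.43, relative -1.15). Creb3l1 was at 2.55 CPM (3 UMIs) and 122 CPM, a ratio of 0.0209 (0.00418 to 0.0643). Dnajc3 and Sec24d were lower at log2 -1.02 and -1.01 but turned positive, at 0.23 and 0.22, under median-of-ratios scaling.

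Of the further lists, all 14 collagen cargo genes were lower (median -7.50). Ppic, a cyclophilin, was at 1355 CPM in ameloblast-like and 525 CPM in connective tissue fibroblast-like cells, Sec11c, a signal peptidase subunit, at 50.2 and 20 CPM, and Ern1, the ER stress sensor that splices Xbp1, at 36.6 and 8.89 CPM. Herpud1, a gene of ER degradation, was at 0.851 CPM (1 UMI) and 57.8 CPM, and 7 of 11 other genes of the unfolded protein response were lower, with 1 higher.

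**Figure D4:**
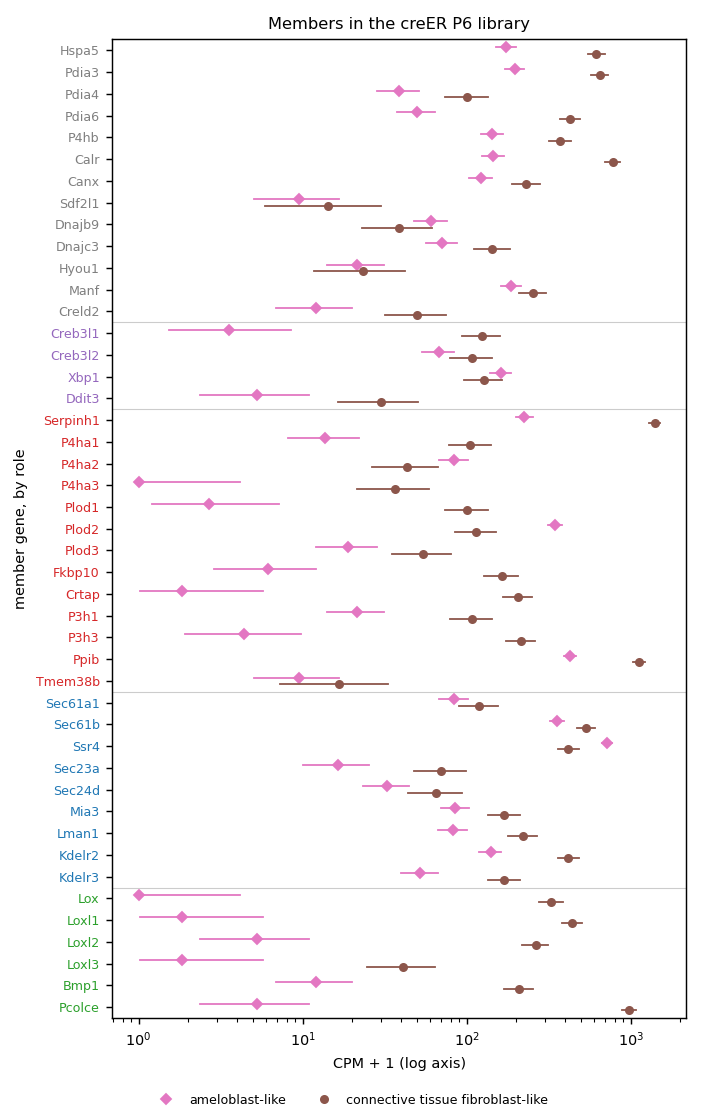
CPM + 1 (log axis) of the 45 genes, by role, in ameloblast-like and connective tissue fibroblast-like cells of creER P6. Points are levels from summed UMIs and bars are exact Poisson 95% intervals. The 6 extracellular genes sit at 11.1 CPM or less in ameloblast-like cells, whereas Plod2, P4ha2 and Ssr4 are farther right there than in connective tissue fibroblast-like cells.

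Osteoblast-like cells of creER P6 were set against the same connective tissue fibroblast-like cells, with 43 members tested (not P4ha3 or Tmem38b). Of these 1 was higher and 4 were lower, against 6.99% of all genes higher, 13.4% lower and 20.4% in either direction, with a members' median of -0.12 beside -0.06 for all genes. Loxl1 was at 87.1 CPM in osteoblast-like and 438 CPM in connective tissue fibroblast-like cells, 5.03-fold lower (ratio 0.199, 0.131 to 0.293), the same direction that separates those classes from each other at P25, where it was at 25.5 and 541 CPM. Plod1 at 29 and 100 CPM, Loxl3 at 11.6 and 40 CPM and Loxl2 at 125 and 262 CPM were also lower. Sdf2l1 was higher at 43.6 and 13.3 CPM (3.27-fold, 1.2 to 10.3), but its log2 ratio was -0.044 with doublets kept.

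The count depended on the clusters. Cluster 2 of the connective tissue fibroblast-like class (88 of 129 cells) was led by Mfap5, Clec3b, Col14a1, Tnmd and Kera, and cluster 15 held the other 41 cells. Lox was at 365 CPM in cluster 2 and 19.9 CPM in cluster 15, and Plod2 at 125 and 19.9 CPM. Each of these cluster 15 values is 1 UMI. The cells of cluster 15 had a median of 1227 UMIs, so values without cluster 2 rest on few UMIs. Without cluster 2, 11 members were past 2-fold in osteoblast-like over connective tissue fibroblast-like cells, 10 higher and 1 lower. Without osteoblast-like cluster 0 the count was 11, 6 higher and 5 lower, and without cluster 13 it was 8, 1 higher and 7 lower.

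The age and the sort changed together between libraries, so P25 against day 6 cannot be told apart from a different reporter, library and depth. The first 8 bases of a barcode were found at the start of some P25 barcode for 82.3% of creER P6 barcodes and 21.0% of GFP P6 barcodes. This bears on whether the libraries drew on 1 set of barcodes, and a difference in chemistry between GFP P6 and P25 cannot be told apart from age and sort. Atf3 was at 127 CPM in P25 and 6.66 CPM in GFP P6 ligament-like cells, at 492 and 5.84 CPM in P25 and creER P6 osteoblast-like cells, and at 978 and 6.71 CPM in P25 and creER P6 connective tissue fibroblast-like cells. The part of these differences in the values that follow was not tested. Levels in the comparisons of P25 with creER P6 were recomputed over the 27040 genes both list, so they differ slightly from those above.

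In ligament-like cells, P25 over GFP P6, 5 of 42 members were higher and 5 lower, against 9.38% of all genes higher, 15.9% lower and 25.3% in either direction. The median of all genes was -0.32 and that of the members 0.35. Median-of-ratios scaling gave 13 higher and 1 lower, and scaling outside the 50 most abundant genes gave 9 higher and 2 lower. P4ha2 was at 96.8 CPM at P25 and 32.4 CPM in GFP P6, 2.99-fold higher (2.63 to 3.4; log2 1.55, relative to the median of all genes 1.87). Loxl2 (286 and 112 CPM), Lman1, a cargo receptor of ER exit (340.0 and 139 CPM), P4hb (401 and 168 CPM) and Ssr4 (607 and 278 CPM) were higher by 2.55, 2.45, 2.38 and 2.18-fold. Collagen cargo genes were higher for 11 of 12 tested (median 2.45), with Col5a1 at 1161 CPM at P25 and 138 CPM in GFP P6.

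The 5 lower members were 4 general chaperones and Loxl1. Pdia6 was at 374 CPM at P25 and 953 CPM in GFP P6 (2.55-fold lower), Sdf2l1 at 18.3 and 43.6 CPM (2.38-fold), Hspa5 at 411 and 884 CPM (2.15-fold) and Creld2 at 36.3 and 74.5 CPM (2.05-fold). Relative to the median of all genes their log2 ratios were -1.03, -0.89, -0.78 and -0.70. Of those 4, Pdia6, Hspa5 and Creld2 are among the 6 members with the ER stress response element shown above, while Calr, Canx and Dnajc3 with the same element had log2 ratios of -0.13, -0.66 and 0.62. Promoters were matched for only 31 of the 45 members, so a member outside those 6 may not have been searched. Loxl1 was at 72.6 CPM at P25 and 162 CPM in GFP P6, 2.23-fold lower. Collagen chaperone Serpinh1 was at 2674 and 2560.1 CPM, a log2 ratio of 0.06. Against the ligament-like cells of creER P6 (152 cells), the same P25 class gave other values. In that day 6 class the 58 cells of cluster 6 had a median of 21397.5 UMIs, against 940.5 in cluster 5 and 831 in cluster 18. Most UMIs of the class came from cluster 6, so its summed levels are largely those of that cluster. Log2 ratios were -0.70 for Pdia6, -0.23 for Hspa5, 0.34 for Creld2 and -0.24 for Loxl1, none past 2-fold, and Sdf2l1 was too low to be tested. Serpinh1 was at 2681 CPM at P25 and 1098 CPM in creER P6 ligament-like cells, a log2 ratio of 1.29. P4ha2 and Loxl2 had 1.63 and 1.2 there, past 2-fold higher as against GFP P6, while Lman1, P4hb and Ssr4 had 0.61, 0.47 and 0.90. For GFP P6, Hyou1, Tmem38b and Loxl3 were too low to be tested.

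In osteoblast-like cells, P25 over creER P6, 4 of 42 members were higher and 4 lower, against 5.99% of all genes higher, 16.5% lower and 22.5% in either direction, with a members' median of 0.07 beside -0.30 for all genes. Both other scalings gave 6 higher and 3 lower. Dnajb9 was at 73.9 CPM at P25 and 23.4 CPM in creER P6 (3.16-fold higher, 1.6 to 7.34), Loxl2 at 369 and 126 CPM (2.94-fold, 2.18 to 4.06), Plod2 at 498 and 202 CPM (2.47-fold) and Lox at 530.4 and 237 CPM (2.24-fold). Cluster 0 of the day 6 class (100 of 160 cells), led by Spp1, Moxd1, Plac8 and Ibsp, with Thbs4 and Tnmd also among its 10 leading genes, had Lox at 101 CPM and Plod2 at 89 CPM, whereas cluster 13, led by Bglap, had them at 427 and 332 CPM. Without cluster 0 the log2 ratios of Lox and Plod2 were 0.53 and 0.69, no longer past 2-fold, and without P25 cluster 13 that of Lox was 0.91. Loxl2 stayed past 2-fold without each of these clusters (1.48 without cluster 0). Dnajb9 was at 0.84 without cluster 13 of the day 6 class. Loxl1 was at 25.6 and 87.6 CPM (3.43-fold lower), Hyou1 at 11.2 and 35 CPM (3.14-fold), Pdia6 at 252 and 678 CPM (2.69-fold) and Sdf2l1 at 20 and 43.8 CPM (2.19-fold). Without day 6 cluster 0, where Pdia6 was at 1020.4 CPM against 346 CPM in cluster 13, the log2 ratios were -0.44 for Pdia6 and -0.49 for Sdf2l1, and without cluster 13 that of Hyou1 was -0.42. The value of Sdf2l1 turned to 0.31 with doublets kept. P4ha3, Tmem38b and Loxl3 were too low to be tested.

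In connective tissue fibroblast-like cells, P25 over creER P6, 1 of 43 members was higher and 2 lower, against 8.93% of all genes higher, 7.41% lower and 16.3% in either direction, with a members' median of -0.35 beside -0.03 for all genes. Sdf2l1 was at 29.1 CPM at P25 and 13.4 CPM in creER P6, 2.17-fold higher with an interval of 0.92 to 6.24 that includes no difference. Lox was at 144 and 329 CPM (2.28-fold lower, interval of the ratio 0.354 to 0.545) and Plod1 at 44.7 and 101 CPM (2.25-fold lower). Loxl1 was at 542 and 440.3 CPM, a log2 ratio of 0.30, beside -1.74 in osteoblast-like and -0.24 in ligament-like cells over the same day 6 library. Without cluster 2 of the day 6 class, 14 members were past 2-fold, 10 higher and 4 lower, and the log2 ratio of Lox turned to 2.79. The 41 day 6 cells then left held 1 Lox UMI. With only cells of at least 1000 UMIs in creER P6 the count was 1. Hyou1 and Tmem38b were too low to be tested.

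**Figure D5:**
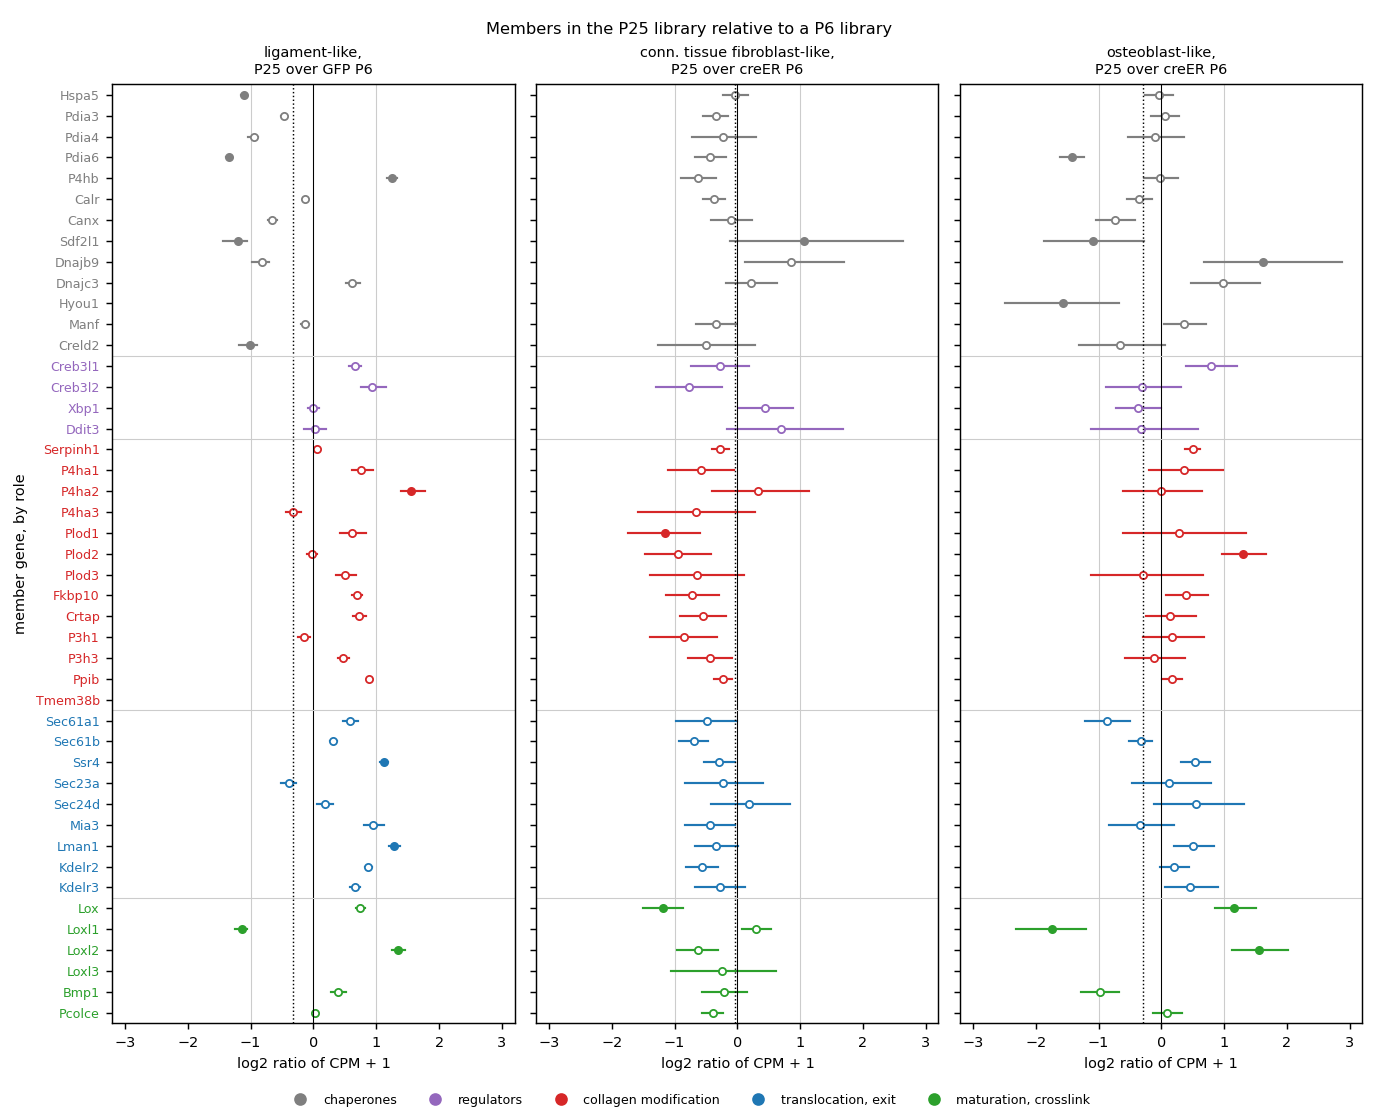
Log2 ratios of CPM + 1 of the 45 genes, by role, for P25 over GFP P6 in ligament-like cells and for P25 over creER P6 in connective tissue fibroblast-like and osteoblast-like cells. Points are log2 ratios after adding 1 CPM, bars the 95% counting interval of the plain ratio, filled points those past 2-fold, and the dotted line the median of all genes. Loxl1 lies left of 0 in ligament-like and osteoblast-like cells and right of it in connective tissue fibroblast-like cells, and Loxl2 lies on the opposite side of 0 from Loxl1 in each panel.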

How the data were processed

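For each of 3 libraries the deposited matrices hold whole UMI counts of genes in cell barcodes, per the file headers and values. Per the file headers, creER P6 was made with Cell Ranger 6.0.0 and P25 with 3.1.0, and the submitters' processing notes name Seurat and mm10. How reads were aligned and barcodes filtered is not given in the sources used here. A cell needed 500 genes or more and no more than 15% of its UMIs from mitochondria (left out at P25, creER P6 and GFP P6: 741, 536 and 3 for genes, 295, 24 and 8 for mitochondria). Doublets were scored against simulated pairs and removed at a preset 0.8% per 1000 cells (256, 10 and 452 cells), a number that follows from the rate and not from the scores. Each library was clustered alone (2000 variable genes without the members and 8 pathway lists, 30 components, 15 neighbours, Leiden resolution 1) with Python 3.11.15, NumPy 2.4.6, SciPy 1.17.1, pandas 2.3.3, scikit-learn 1.9.0, igraph 0.11.9, leidenalg 0.10.2 and matplotlib 3.10.9.

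Clusters were named from 19 marker lists where at least 3 markers stood 1.5-fold above the other clusters in at least 10% of cells. The naming thresholds were adjusted after the clusters were seen. The members, lists and markers were chosen with earlier results of these data known. P25 and creER P6 were compared over the 27040 shared genes, within-library comparisons over all listed genes of known name. In each comparison up to 6 members with the highest and 6 with the lowest log2 ratio were to be named, with role groups described by level, and up to 3 at either end of a pathway list. Ddit3 and the stress genes Fos, Atf3 and Ppp1r15a are named in places outside that rule, a choice made after their values were seen. All value columns were used (0 left out). Simulated counts were Poisson draws from the pooled levels of 2 classes, with known changes in some genes. On them, intervals covered the true ratio for 95.5% of 5905 genes in odontoblast-like over pulp-like cells and 96.3% of 4304 in ameloblast-like over connective tissue fibroblast-like cells. The intervals assume such draws, so coverage near 95% was built in and says nothing of variation between cells or animals. Alternatives were doublets kept, a 10% mitochondrial limit, resolution 0.5, naming by the best list alone, members allowed among the variable genes, 2 other scalings, mean CPM per cell, no level filter, a pseudocount of 5 and each cluster left out. Limiting odontoblast-like cells to those with a Dspp UMI and creER P6 cells to at least 1000 UMIs was chosen after seeing the data.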

Additional observations from a re-analysis of the deposited data

Results flagged for a closer look

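Sdf2l1, a partner of ER chaperones, had log2 ratios of 1.06 in connective tissue fibroblast-like cells and -1.09 in osteoblast-like cells, both P25 over creER P6. Lox had -1.18 and 1.16 in those classes. In each gene the single libraries moved in opposite directions in the 2 classes. The differences were not tested, since each age is 1 library. For Sdf2l1 the value in osteoblast-like cells turned to 0.31 with doublets kept, and for Lox the value in connective tissue fibroblast-like cells turned to 2.79 without cluster 2 of creER P6. That Lox value rests on 1 UMI in creER P6. Without osteoblast-like cluster 0 of creER P6 the values in osteoblast-like cells were -0.49 for Sdf2l1 and 0.53 for Lox.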

How the results depend on the processing

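No paired analysis was possible because each group is 1 library and no test was run. Of 166 counts of members past 2-fold under the alternatives, 147 stayed within 1.5 times of the reported count and 19 did not. For odontoblast-like over osteoblast-like cells at P25 the count was 2 with doublets kept, under both other scalings, with no level filter and without osteoblast-like cluster 8, and 3 as a mean per cell, without cluster 11, without cluster 13 or with Dspp-positive cells only, against 1. For connective tissue fibroblast-like over ligament-like cells it was 7 without ligament-like cluster 1, against 12. For osteoblast-like over connective tissue fibroblast-like cells of creER P6 it was 3 at 10% mitochondrial UMIs and with members allowed, 11 at resolution 0.5, without osteoblast-like cluster 0 and without connective tissue fibroblast-like cluster 2, and 8 without osteoblast-like cluster 13, against 5. For connective tissue fibroblast-like cells, P25 over creER P6, it was 7 as a mean per cell, 14 without cluster 2 of creER P6 and 1 with at least 1000 UMIs, against 3. The causes were not tested. Of 1695 values of single members, 1219 kept their direction and side of 2-fold without moving by more than their interval, 159 were no longer past 2-fold, 309 moved beyond their interval and 8 changed sign: in ameloblast-like over connective tissue fibroblast-like cells Dnajc3 gave 0.26 outside the 50 most abundant genes, 0.23 under median-of-ratios scaling and 0.22 without cluster 2, and Sec24d 0.25 and 0.22 under those scalings. Sdf2l1 gave -0.044 in osteoblast-like over connective tissue fibroblast-like cells and 0.31 in osteoblast-like cells, P25 over creER P6, with doublets kept, and Lox gave 2.79 in connective tissue fibroblast-like cells, P25 over creER P6, without cluster 2. That Lox value rests on 1 UMI in creER P6. Odontoblast-like cells could not be obtained at resolution 0.5, nor ligament-like over pulp-like cells of GFP P6 with doublets kept. Levels in creER P6 are limited by its depth, and values under about 20 CPM there rest on few UMIs.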

Other observations

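In GFP P6 the largest named class, Col9a1-high mesenchymal cells (2104 cells), is not part of the comparisons above, yet it held the highest level of 13 of the 45 genes over 6 classes, against 15 for ligament-like and 3 for pulp-like cells. No like count was made over all genes. The 13 included Crtap, P3h3, Fkbp10, Ppib, Sec61a1, Sec61b and Lman1 but not P3h1, Hspa5 or P4hb. Serpinh1, the procollagen chaperone, was at 2718 CPM there, against 2560.1 CPM in ligament-like cells, and Ppib, a prolyl isomerase, was at 1193 CPM, against 881 CPM in mural-like cells. P3h3 was at 236 CPM and Crtap at 156 CPM, with pulp-like cells next for Crtap at 132 CPM. Plod2 was at 33.3 CPM in Col9a1-high cells and 190 CPM in ligament-like cells, and Lox at 14.9 and 234 CPM. Collagen genes took 1.05% of UMIs in the Col9a1-high class, against 2.12% in ligament-like and 0.815% in pulp-like cells. Each value comes from 1 library, so none has a replicate check.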
